A study of Homo sapiens with 11 samples.

Results

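The genes described here encode receptors with which lymphocytes leave tissues, find them and adhere to them. They are the sphingosine-1-phosphate (S1P) receptors S1PR1, S1PR2 and S1PR4, the chemokine receptors CXCR4 and CCR7, the hyaluronan receptor CD44, and the integrin subunits ITGA4, ITGB1 and ITGA6. These 9 genes are a small part of the 19775 genes that were measured. They were listed by symbol, and each is represented by the probe set listed with that gene alone that had the highest mean over all 11 arrays. The list was drawn up for S1PR4, which was selected on its own measured values, namely its difference between replicate 3 and replicates 1 and 2 and its difference from control. Those S1PR4 values are therefore a description and carry no test. The other 8 genes were tested in every comparison, with limma's adjusted p taken over all 19775 genes.

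The cells were Reh, an established line of B-cell precursor leukaemia with the ETV6-RUNX1 fusion, and every group, the control included, had been infected with virus to express miR-125b stably. The promoter that drives miR-125b is not given in the labels, and the infected cells are described as a culture, not as a clone. On that shared background the cells received Lipofectamine with precursor oligonucleotides. The control group received a scrambled sequence (66 µM, 2 arrays), the next groups received miR-99a (66 µM, 3 arrays) or miR-100 (66 µM, 3 arrays), and the last group received miR-99a and miR-100 together (33 µM of each, 3 arrays). Oligonucleotides were given again after 72 h, and the cells were harvested 48 h later. The labels number the arrays 1 to 3 within a group, and the control has no array numbered 3. Nothing in the labels states that arrays of a group came from separate cultures, so the p-values measure the spread between these arrays, which may be technical.

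S1P is a lipid signal that is abundant in blood and lymph and scarce inside tissues, and its receptors couple to heterotrimeric G proteins. S1PR1 drives lymphocyte exit along that gradient, S1PR2 restrains migration, and S1PR4 is found mainly in cells of the blood lineages. In bone marrow, precursor B cells are held near stromal cells by CXCR4, the receptor for CXCL12, and by the integrin made of ITGA4 and ITGB1, which binds VCAM1 and fibronectin.

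The transfected miRNAs are shown because they share the seed that selects targets, whereas the miRNA that all groups expressed has another seed. Capitals mark the seed, bases 2 to 8 from the 5′ end. The mature sequences are those of RefSeq (GRCh38.p14).
hsa-miR-99a-5p: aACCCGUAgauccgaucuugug
hsa-miR-100-5p: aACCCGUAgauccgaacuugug
hsa-miR-125b-5p: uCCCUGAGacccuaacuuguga
The first is encoded at chr21:16539101-16539122 on the plus strand, and the second at chr11:122152275-122152296 on the minus strand. The third is encoded by MIR125B1 at chr11:122099809-122099830 on the minus strand and by MIR125B2 at chr21:16590253-16590274 on the plus strand. The miR-99a and miR-100 sequences differ by the single substitution U16A, counted from the 5′ end with the base of miR-99a first, which lies outside the seed. Sites for these seeds in the receptor transcripts were not analysed here.

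The 250 bases before the most upstream listed start of S1PR4, ITGA4 and ITGB1 are printed because these are the 3 receptor genes that moved most between arrays, S1PR4 in one direction and the integrin genes in the other. The sequences are from the RefSeq promoter table (GRCh38.p14), 5′ to 3′ in the direction of the gene. S1PR4 lies at chr19:3178519-3178768 on the plus strand, ITGA4 at chr2:181457136-181457385 on the plus strand, and ITGB1 at chr10:32958231-32958480 on the minus strand. Capitals mark GGGCGG, the GC box, and CACCC, the core bound by Krüppel-like factors, on either strand.
S1PR4: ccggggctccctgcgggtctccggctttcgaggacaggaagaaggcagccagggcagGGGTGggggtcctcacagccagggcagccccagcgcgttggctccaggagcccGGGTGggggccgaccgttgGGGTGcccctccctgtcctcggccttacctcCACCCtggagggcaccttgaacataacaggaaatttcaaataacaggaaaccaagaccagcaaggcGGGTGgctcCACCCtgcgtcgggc
ITGA4: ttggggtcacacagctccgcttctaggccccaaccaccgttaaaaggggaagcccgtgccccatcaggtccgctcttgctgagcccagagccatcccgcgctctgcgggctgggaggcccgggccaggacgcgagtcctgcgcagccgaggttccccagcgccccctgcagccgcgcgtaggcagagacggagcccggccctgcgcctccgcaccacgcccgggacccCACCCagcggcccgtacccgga
ITGB1: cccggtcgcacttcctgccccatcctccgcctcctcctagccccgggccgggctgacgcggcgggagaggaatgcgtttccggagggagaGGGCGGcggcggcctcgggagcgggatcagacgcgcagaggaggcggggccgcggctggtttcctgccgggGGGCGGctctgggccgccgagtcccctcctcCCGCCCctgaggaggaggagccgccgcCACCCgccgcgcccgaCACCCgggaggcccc
The S1PR4 window held 6 matches to CACCC and 0 to GGGCGG. The ITGB1 window held 3 matches to GGGCGG and 2 to CACCC, and the ITGA4 window held 1 to CACCC and 0 to GGGCGG. The motifs CCAAT and TATAAA were also searched on both strands and had 0 matches in these windows. No matches to different motifs overlapped in them. Among 35116 promoters of the same length, CACCC was present in 54.7%, GGGCGG in 42.6%, CCAAT in 32.0% and TATAAA in 10.7%, and 6 or more matches to CACCC were present in 0.384%. The windows were rich in G and C, at 66.8% for S1PR4, 72.8% for ITGA4 and 78.4% for ITGB1, against a median of 58.0% over all promoters. These matches describe letters and are not sites. Of the 9 genes, 8 had an entry in that table, and CCR7 is the other.

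The signals the authors deposited are log2 values, and the medians of the 11 arrays lay between 5.95 and 5.98. Arrays correlated across genes at r from 0.989 to 0.998 over 55 pairs. The precursor B-lineage markers were high, led by DNTT at a mean of 13.09, IGLL1 at 12.24 and EBF1 at 12, and of the 11 measured only VPREB1, at 5.48, was below the array medians. The mean level of that list ran from 10.42 to 10.65 over the arrays. Marker lists for myeloid cells, T and NK lymphocytes, platelets with erythroid cells, endothelium, and epithelium with fibroblasts had mean levels between 5.79 and 6.18 on every array, and none of their genes reached the 90th percentile of gene means, 9.68. Signals of different probe sets cannot be ranked against each other, so levels are compared only within a gene.

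S1PR4 was the receptor whose signal varied most, and it varied with the replicate number more than with the oligonucleotide. Its log2 signal was 9.02 and 9.21 on the control arrays. With miR-99a it was 9.39, 9.79 and 8.81 on replicates 1, 2 and 3. With miR-100 it was 9.54, 9.42 and 9.01, and with both oligonucleotides it was 9.45, 9.71 and 8.81. The 6 treated arrays numbered 1 or 2 thus all lay above both control arrays, and the 3 treated arrays numbered 3 all lay below them, although the miR-100 array missed the lower control only narrowly. Of all genes, 1.63% had that pattern, 5.28% had all 6 treated arrays of replicates 1 and 2 above both control arrays whatever replicate 3 did, and 10.9% had them all below. The means were 9.11 ± 0.13 in control (SD, n = 2), 9.55 ± 0.17 in treated replicates 1 and 2 (SD, n = 6) and 8.88 ± 0.11 in treated replicate 3 (SD, n = 3). After allowing for treatment, replicate 3 differed from replicates 1 and 2 by -0.67 on the log2 scale, which is 1.6-fold lower. In bulk samples such as these, fewer cells with a transcript and less of it per cell cannot be told apart.

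**Figure D1:**
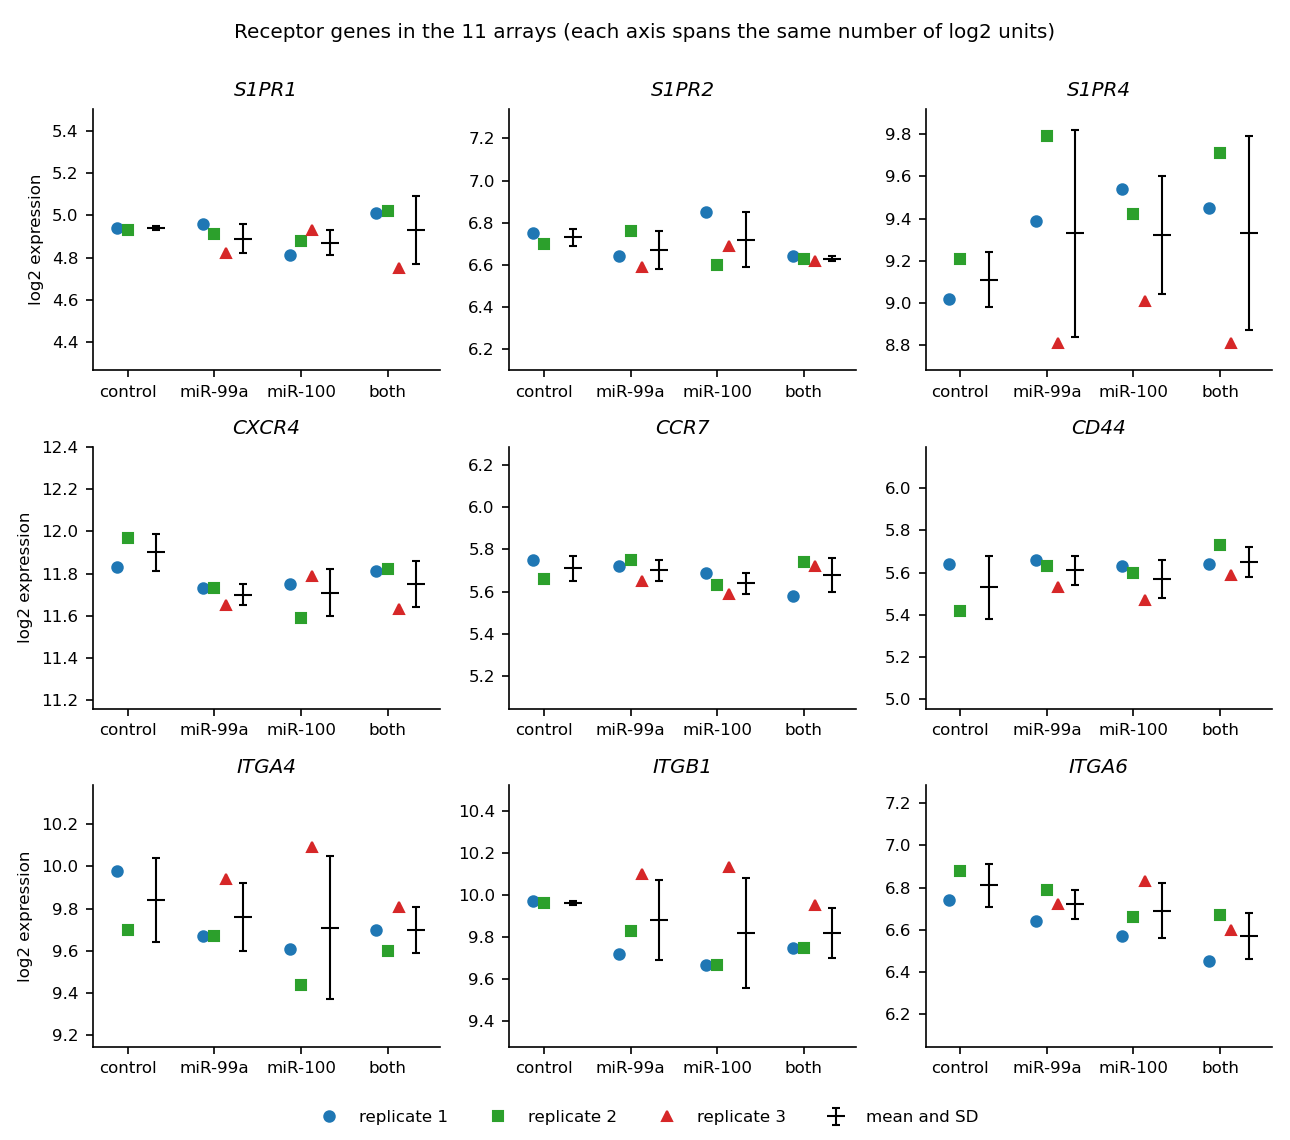
Log2 expression of the 9 receptor genes on the 11 arrays, by group, with replicate 1 as circles, replicate 2 as squares and replicate 3 as triangles; horizontal marks and bars are the group mean and SD (n = 2 in control, 3 in each treatment), and every vertical axis spans the same number of log2 units. In S1PR4 the triangles lie at 8.81, 9.01 and 8.81, below both control arrays, while in ITGA4 and ITGB1 they lie above the circles and squares of the same treatment.

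Each treatment showed the same order for S1PR4. Replicate 3 minus the mean of replicates 1 and 2 was -0.78 in the miR-99a group, -0.47 for miR-100 and -0.77 where both were given. Set against the control mean, replicate 3 was lower in all 3 treatments, at -0.30, -0.11 and -0.30. Because the control has no array numbered 3, its own level at that number is not known.

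Averaged over all 3 replicates, these opposite positions left nearly equal group means for S1PR4. They were 9.33 ± 0.49 with miR-99a, 9.32 ± 0.28 for miR-100 and 9.33 ± 0.46 with both (SD, n = 3 each), 0.21 above control in every case. That difference was smaller than its standard error, 0.29, which includes the spread between replicate numbers. Leaving out single arrays moved the difference to -0.02 (without miR-99a replicate 2) in the first case, and to 0.02 (without replicate 2 of both) in the last. With replicates 1 and 2 alone the differences from control were 0.47 for miR-99a, 0.36 for miR-100 and 0.47 where both were given, each with a standard error of 0.11. These comparisons share the control arrays, and for S1PR4 they carry no test.

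Limma's test was applied to the differences between treatments for S1PR4. The gene was not picked directly on them, but it was picked on the values of these same arrays. Its miR-100 minus miR-99a difference was -0.01, with a 95% interval from -0.59 to 0.57 and an adjusted p of 1.0. Both oligonucleotides together differed from the mean of the single ones by 0.00, with an interval from -0.50 to 0.50 and an adjusted p of 0.9998. These intervals reach differences of about 1.5-fold. They include the spread between replicate numbers, which the treated arrays share: in the fit with a replicate block the differences were -0.01 with an interval from -0.17 to 0.15 and 0.00 with an interval from -0.14 to 0.14, or at most 1.12-fold either way, and neither passed. For the other 8 genes the miR-100 minus miR-99a differences ran from -0.07 for CCR7 to 0.05 for S1PR2, and those of both minus the single oligonucleotides ran from -0.13 for ITGA6 to 0.07 for CD44. None of them passed.

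The other S1P receptors stayed within a narrow band. S1PR1 ran from 4.75 to 5.02 over the 11 arrays, below every array's median, and S1PR2 ran from 6.59 to 6.85. S1PR1 had means of 4.94 in control, 4.89 with miR-99a, 4.87 for miR-100 and 4.93 with both, and S1PR2 had 6.73, 6.67, 6.72 and 6.63 in the same order. The differences from control were at most 0.06 below for S1PR1 and 0.10 below for S1PR2, with standard errors of 0.09 and 0.08, and neither gene passed the test. In replicate 3 S1PR1 differed by -0.10 (adjusted p 0.317 by limma) and S1PR2 by -0.06 (adjusted p 0.648 by limma) from replicates 1 and 2. Without the miR-100 array numbered 3, that difference for S1PR1 was -0.19 and its adjusted p 0.048, the only alternative run in which S1PR1 passed.

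CXCR4 was lower on every treated array than on either control array, but by an amount that did not pass the test. Its signal was 11.83 and 11.97 in control, 11.73, 11.73 and 11.65 with miR-99a, 11.75, 11.59 and 11.79 in the miR-100 group, and 11.81, 11.82 and 11.63 with both, each in the order of replicate number. The highest treated array fell just short of the lower control array. That position, all 9 treated arrays below both control arrays, was held by 1.60% of all genes, 316 in number. Against control, CXCR4 differed by -0.20 for miR-99a, -0.19 for miR-100 and -0.15 where both were given (standard error 0.09 each), and limma's unadjusted p-values were 0.0457, 0.0551 and 0.112. Adjusted over all genes they were 0.9998, 1.0 and 0.9998. Expressed as a fold, all treated arrays together were 1.13-fold below control.

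The arrays of CXCR4 did not fall apart by replicate number as those of S1PR4 did. Replicate 3 differed from replicates 1 and 2 by -0.05, with an interval from -0.19 to 0.09, and after quantile normalization this difference was 0.10 instead. The other probe sets of CXCR4 also differed little in replicate 3, at 0.00 and -0.05, and they too were lower in treated cells than in control, by 0.17 and 0.12 on average. With replicates 1 and 2 alone the CXCR4 differences from control were -0.17, -0.23 and -0.09, with adjusted p-values by limma of 0.535, 0.161 and 0.674.

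CCR7, which guides lymphocytes towards lymph nodes, and CD44, which binds hyaluronan in the matrix, gave low signals throughout. CCR7 ran from 5.58 to 5.75 and CD44 from 5.42 to 5.73, both below the array medians. All 13 probe sets of CD44 had means between 4.95 and 5.60, so no probe set of that gene rose above the array medians on average. The differences of CCR7 from control were 0.00, -0.07 and -0.03 with miR-99a, miR-100 and both, and those of CD44 were 0.08, 0.04 and 0.13. The CD44 control arrays, at 5.64 and 5.42, were further apart than any of these. Replicate 3 differed from replicates 1 and 2 by -0.03 for CCR7 (adjusted p 0.798 by limma) and by -0.12 for CD44 (adjusted p 0.187 by limma).

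The integrin genes ITGA4 and ITGB1 moved together and opposite to S1PR4, being higher in replicate 3 of every treatment. ITGA4, the alpha chain, measured 9.98 and 9.70 in control, 9.67, 9.67 and 9.94 with miR-99a, 9.61, 9.44 and 10.09 in the miR-100 group, and 9.70, 9.60 and 9.81 with both, in the order of replicate number. ITGB1, the beta chain with which it pairs, measured 9.97 and 9.96 in control, 9.72, 9.83 and 10.10 with miR-99a, 9.67, 9.67 and 10.13 in the miR-100 group, and 9.75, 9.75 and 9.95 with both. In both genes all 3 treated arrays numbered 3 lay above all 6 treated arrays numbered 1 or 2. The share of all genes with that order was not counted, but 17.1% of all genes passed as higher in replicate 3. All 6 lay below both control arrays, for ITGA4 only narrowly, as they did in 10.9% of all genes. After quantile normalization that position below control was kept by ITGB1 and lost by ITGA4. The replicate 3 arrays of ITGA4, from 9.81 to 10.09, overlapped the control arrays, and those of ITGB1, from 9.95 to 10.13, ran from just below the control arrays to above them.

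Both integrin genes passed the test between replicate 3 and replicates 1 and 2, as did 29.3% of all genes. ITGB1 was higher by 0.33 (standard error 0.07, interval 0.19 to 0.46, 1.25-fold) with an adjusted p of 9.4e-05 by limma, and the rise was 0.32, 0.45 and 0.20 within miR-99a, miR-100 and both. ITGA4 was higher by 0.33 (standard error 0.07, interval 0.19 to 0.47, 1.26-fold) with an adjusted p of 0.000147, and the rise was 0.27, 0.57 and 0.16. The miR-100 array numbered 3 added to both, since without it ITGA4 was higher by 0.22 (adjusted p 0.0296 by limma) and ITGB1 by 0.26 (adjusted p 0.00642 by limma). Thus 2 of the 8 tested receptor genes were higher in replicate 3 and 0 were lower, where 17.1% of all genes were higher and 12.2% lower. Whether the rise differed between treatments cannot be decided here, because each treatment had a single array numbered 3. The median difference of the 8 genes was -0.042, beside 0.001 over all genes.

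**Figure D2:**
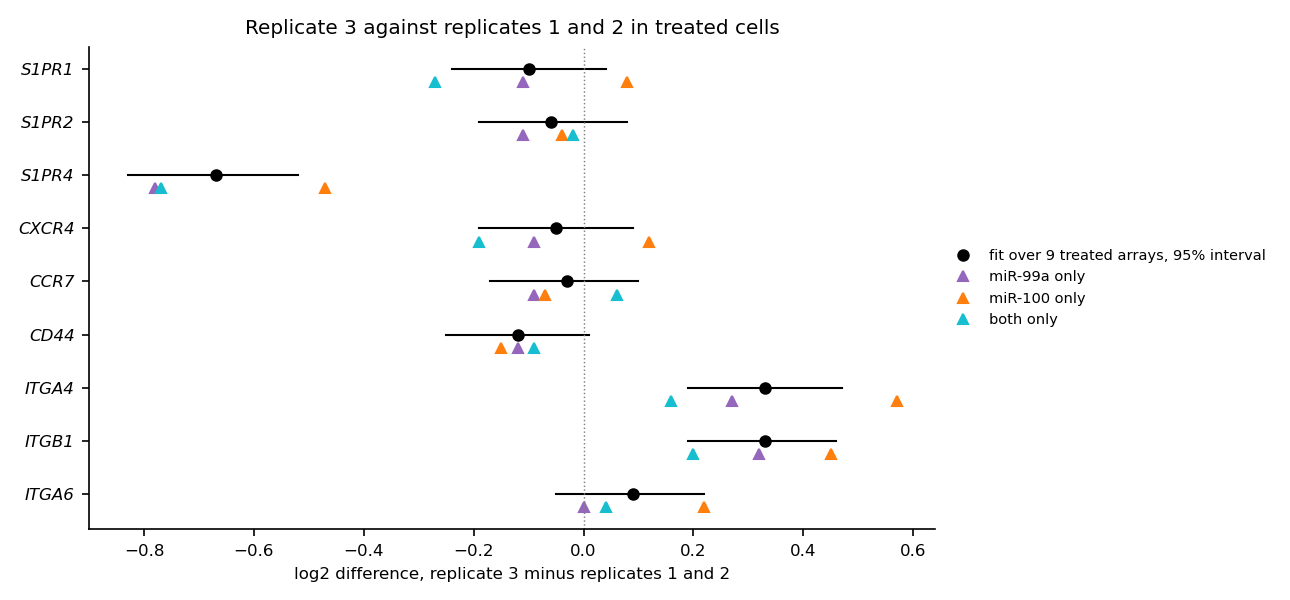
Log2 difference between replicate 3 and replicates 1 and 2 in treated cells for the 9 receptor genes; black circles with bars are the fit over the 9 treated arrays with its 95% interval, and triangles are the differences within miR-99a, miR-100 and both. S1PR4 lies at -0.67, ITGA4 and ITGB1 at 0.33, and the intervals of the other 6 genes include 0. The interval of S1PR4 takes no account of its selection on this contrast and is not a test.

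The brighter probe sets of ITGB1 gave the same rise, while its dim ones gave values on both sides of 0. Besides the probe set used, whose mean was 9.86, those with means of 7.6 and 7.54 were higher in replicate 3 by 0.33 and 0.29, with all 3 treatments positive. The other 4, with means of 5.17 or less, gave 0.14, -0.12, -0.06 and 0.05. Of the 4 probe sets of ITGA4, 3 were higher in replicate 3, by 0.33, 0.20 and 0.20, and the one with the lowest mean, 6.49, gave -0.13. When all probe sets of a gene were averaged, both genes missed the threshold, ITGA4 at 0.15 with an adjusted p of 0.0503 and ITGB1 at 0.14 with an adjusted p of 0.0512 by limma. The calls on the integrin genes therefore hold for their brightest probe sets and not for that average. S1PR4 has 1 probe set, so no second measurement of it was at hand.

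**Figure D3:**
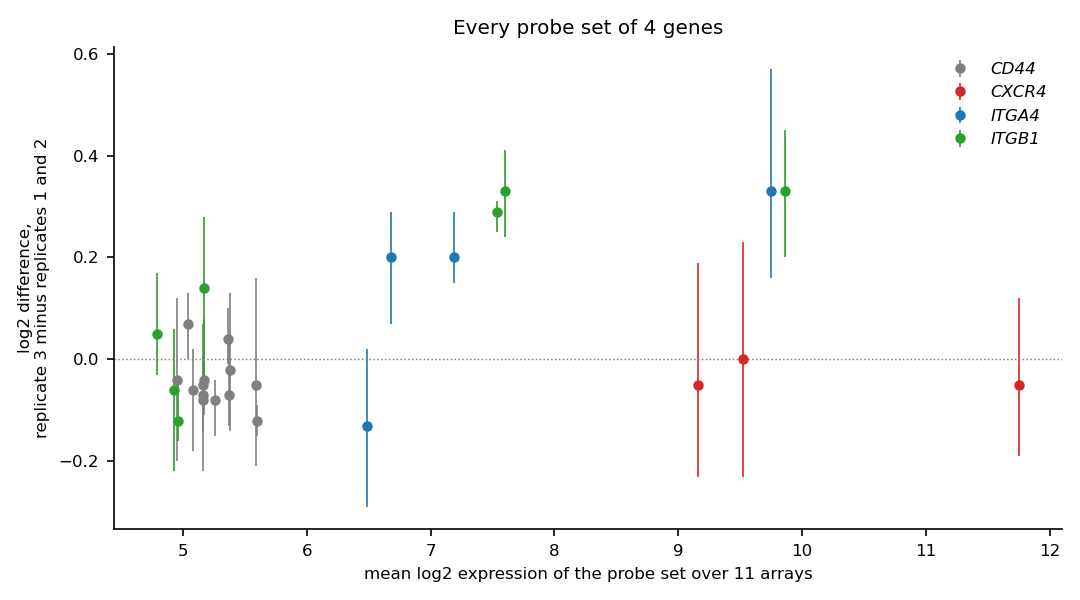
Every probe set of CXCR4, CD44, ITGA4 and ITGB1, with its mean log2 expression over the 11 arrays on the horizontal axis and its log2 difference between replicate 3 and replicates 1 and 2 on the vertical axis; bars run from the lowest to the highest of the 3 treatments. The ITGB1 probe sets with means above 7 lie between 0.29 and 0.33, while all 13 of CD44 lie at means of 5.60 or less and near 0.

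ITGA6, the alpha chain of laminin receptors, pairs with ITGB1 but showed a smaller difference in replicate 3. It measured 6.74 and 6.88 in control, 6.64, 6.79 and 6.72 with miR-99a, 6.57, 6.66 and 6.83 in the miR-100 group, and 6.45, 6.67 and 6.60 with both. With both oligonucleotides all 3 arrays lay below both control arrays, a position whose share over all genes was not counted. For scale, all 6 treated arrays of replicates 1 and 2 lay below both control arrays in 10.9% of all genes. The ITGA6 difference from control with both oligonucleotides was -0.24 with an interval from -0.45 to -0.03. Limma's unadjusted p for it was 0.029 and its adjusted p 0.9998. The replicate 3 difference was 0.09, with an adjusted p of 0.419 by limma.

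Across all comparisons between treatments and control, none of the 8 tested receptor genes passed. Nor did any other gene in the fit without a replicate term. The share called was 0.0% in each of the 3 comparisons with control and in both comparisons between treatments. A replicate block, which assumes that control and treated arrays of the same number are paired, raised the count over all genes. It gave 5 with miR-99a, 7 for miR-100 and 863 with both. At an unadjusted p under 0.05, limma without that block gave 1 of the 8 receptor genes with miR-99a (CXCR4). It gave 0 for miR-100 and 1 with both (ITGA6), beside 198, 305 and 724 of all genes. Of the 8 genes, 7 had a lower mean than control in each comparison, beside 10484, 10679 and 10241 of all 19775 genes. The 3 comparisons use the same control arrays, so they are not separate observations. Median differences of the 8 genes were -0.071, -0.099 and -0.118, while the median over all genes was -0.006, -0.008 and -0.004. With replicates 1 and 2 alone the integrin genes were further below control. ITGB1 differed by -0.19, -0.29 and -0.21 (adjusted p 0.448, 0.106 and 0.193 by limma) and ITGA4 by -0.17, -0.32 and -0.19 (adjusted p 0.576, 0.113 and 0.331 by limma). In that comparison ITGA6 with both oligonucleotides differed by -0.25 and had an adjusted p of 0.157 by limma.

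**Figure D4:**
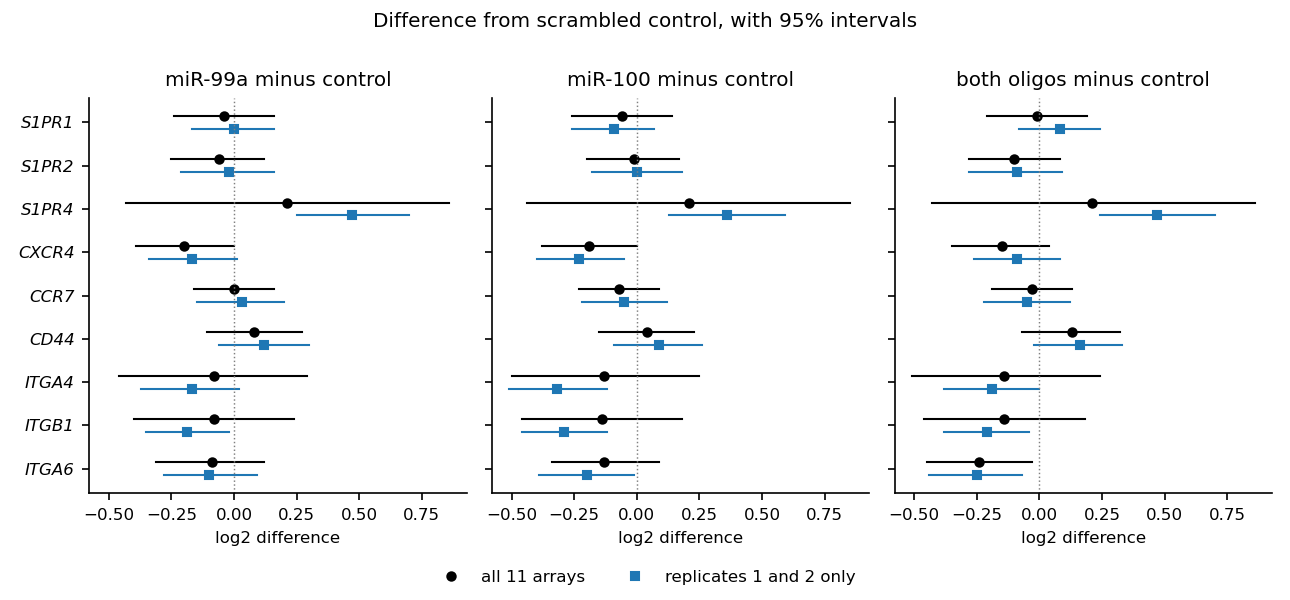
Log2 difference from the scrambled control for the 9 receptor genes with miR-99a, miR-100 and both oligonucleotides; black circles use all 11 arrays, blue squares use replicates 1 and 2 only, and bars are 95% intervals. S1PR4 moves from 0.21 to 0.47, 0.36 and 0.47 when replicate 3 is left out, and CXCR4 lies between -0.20 and -0.15 with all arrays. The intervals of S1PR4 take no account of its selection on these differences and are not a test.

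The genes whose profile over the 11 arrays was most like that of S1PR4 were FAAP20, KCNK12, TSPO, C8orf82 and SNRPB. Likeness was the root-mean-square difference between log2 profiles, each centred on its own mean, and it was 0.0698, 0.0833, 0.0883, 0.0912 and 0.0920 for these genes, against a spread of S1PR4 about its own mean of 0.325. FAAP20, a protein of DNA crosslink repair, had a mean of 7.66 in control, 8.0 in treated replicates 1 and 2 and 7.40 in treated replicate 3. TSPO, a protein of the outer mitochondrial membrane, had 10.25, 10.56 and 9.83, and SNRPB, a core protein of the spliceosome, had 11.42, 11.68 and 11.05. In all 5 genes replicate 3 was lower than replicates 1 and 2, by 0.60 to 0.73. They were picked for likeness over these same arrays, so this carries no test.

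Among the receptor genes themselves no profile was close to that of S1PR4. Its difference from ITGA4 was 0.474 and from ITGB1 0.457, while ITGA4 and ITGB1 differed from each other by 0.0818. Other small differences, such as 0.0744 between CCR7 and CD44, were between genes that varied little. Such genes lay from S1PR4 by about its own spread of 0.325, as CD44 did at 0.286. Those distances follow from the size of the variation for which S1PR4 was selected.

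**Figure D5:**
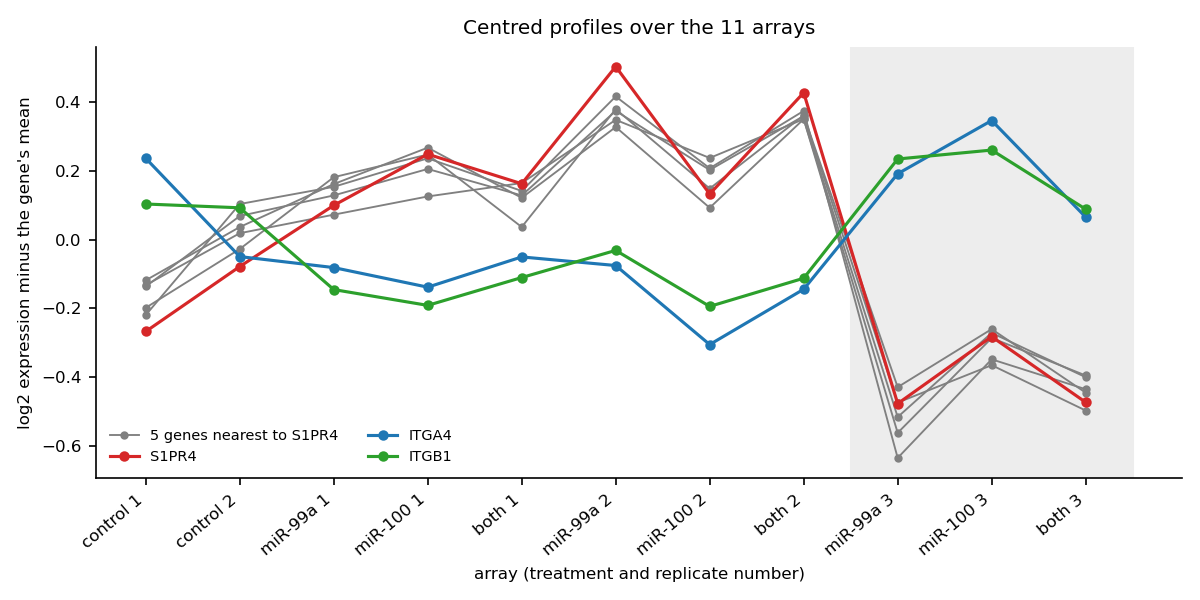
Log2 expression minus the gene's own mean on each of the 11 arrays, ordered by replicate number, for S1PR4 (red), ITGA4 (blue), ITGB1 (green) and the 5 genes nearest to S1PR4 (grey); the shaded arrays are the treated arrays numbered 3. S1PR4 and its nearest genes drop in the shaded arrays, where ITGA4 and ITGB1 rise.

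Other genes of these pathways were examined in 11 lists with 150 measured genes. In the comparisons with control, fitted without a replicate term, 0 of them passed. The smallest p-values belonged to the chemokine receptor CXCR5 with miR-99a (-0.21, standard error 0.07, adjusted p 0.9998 by limma) and to the G protein alpha subunit GNAI3 for miR-100 (-0.30, standard error 0.09, adjusted p 1.0) and with both (-0.36, standard error 0.09, adjusted p 0.9998). Between replicate 3 and replicates 1 and 2, S1PR4 was left out of the counts because it was chosen on that contrast. Of the other 149 genes, 15 were higher (10.1%), ITGA4 and ITGB1 among them, and 20 were lower (13.4%), where 17.1% and 12.2% of all genes were. The median of the 149 was -0.01, beside 0.001 over all genes. The counts of single lists are small and are to be read against those same shares.

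Around the S1P receptors, the enzymes that degrade the ligand were called in both directions. Of 8 genes of S1P synthesis, export and breakdown, 1 was higher and 2 were lower in replicate 3. The S1P phosphatase SGPP1 was lower (-0.49, adjusted p 4.57e-08 by limma) and the lipid phosphatase PLPP1 was lower (-0.32, adjusted p 0.000252), while the S1P lyase SGPL1 was higher (0.21, adjusted p 0.0122). Of 20 genes of G protein and arrestin coupling, 1 was higher and 5 were lower, where all genes had 17.1% higher and 12.2% lower. Those lower included RGS19, which shortens signalling by inhibitory G proteins (-0.49, adjusted p 3.65e-08), and the subunits GNB2 (-0.49, adjusted p 1.1e-07), GNAI2 (-0.32, adjusted p 0.000126) and GNG2 (-0.30, adjusted p 0.000397).

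Among regulators of egress and homing, 2 of 13 genes were higher and 4 were lower in replicate 3, while 29.3% of all genes passed in either direction. KLF2, a transcription factor that activates S1PR1 in lymphocytes, had means of 8.24 in control, 8.56 in treated replicates 1 and 2 and 7.90 in treated replicate 3, a log2 difference of -0.67 (adjusted p 1.08e-10 by limma). It therefore took the same order of means as S1PR4, as did RGS19, GNB2, CD9, CD81, CD99 and other genes named here. The share of all genes with that order of means was not counted. A link between KLF2 and S1PR4 was not tested. CD69, which removes S1PR1 from the cell surface, was lower (-0.57, adjusted p 4.12e-09), as were the surface protein CD47 (-0.52, adjusted p 2.26e-08) and the adhesion protein CD99 (-0.36, adjusted p 5.48e-05). S1PR1 itself, at a signal below the array medians, did not pass.

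The integrin lists held calls in both directions in replicate 3, where 17.1% of all genes were higher and 12.2% lower. Of 18 alpha subunits 1 was higher, ITGA4, and 1 was lower, ITGAE, which pairs with ITGB7 (-0.40, adjusted p 6.16e-06 by limma). Of 7 beta subunits 2 were higher, ITGB1 and ITGB2, the beta chain of the leukocyte integrins (0.17, adjusted p 0.0389). Of 19 genes of integrin activation 4 were higher and 5 were lower. The activator of RAP1 RASGRP2 (0.38, adjusted p 1.01e-05) and the guanine nucleotide exchange factor DOCK2 (0.34, adjusted p 0.000163) were higher. ITGB1BP1, which competes with talin for the ITGB1 tail (-0.44, adjusted p 1.03e-06), and the talin gene TLN1 (-0.30, adjusted p 0.000287) were lower.

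In the list of CD44 partners and their linkage to actin, 3 of 14 genes were higher and 2 were lower in replicate 3. Of all genes, 17.1% were higher and 12.2% lower. The tetraspanins CD9 (-0.73, adjusted p 1.7e-09 by limma) and CD81 (-0.48, adjusted p 2.3e-07), which sit beside integrins in the membrane, were lower. HMMR, another hyaluronan receptor (0.44, adjusted p 1.92e-06), and RDX, which links membrane proteins to actin (0.27, adjusted p 0.00131), were higher. Of 20 chemokine receptors 0 passed, the lowest adjusted p by limma being 0.117. Of 16 ligands of the receptors 1 was higher, the laminin chain gene LAMC1 (0.27, adjusted p 0.00185), and of 11 genes of selectins and their ligands 1 was lower, the galactosyltransferase B4GALT1 (-0.41, adjusted p 5.24e-06).

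The arrays' own controls also differed with replicate number. The 12 probe sets for RNAs spiked in before labelling had mean signals of 8.06 to 8.90 in control, 8.61 to 9.02 in treated replicates 1 and 2 and 7.75 to 8.35 in treated replicate 3, which did not overlap the other treated arrays. The 9 probe sets for controls added at hybridization gave 10.15 to 10.46, 10.24 to 10.72 and 9.89 to 10.57, and these ranges overlapped. The difference between the 3′ and 5′ probe sets of ACTB, a measure of RNA integrity, was 2.56 to 2.96, 2.45 to 3.17 and 2.52 to 2.85, and that of GAPDH was 0.52 to 0.58, 0.53 to 0.63 and 0.56 to 0.71. The part of the spiked-in controls in the differences of S1PR4, ITGA4 and ITGB1 was not tested. Gene lengths were not used here, and their part in these differences was not tested either. The mean level of the B-lineage markers was 10.49 to 10.59 in treated replicate 3 and 10.42 to 10.65 in the other treated arrays. Single markers of that list moved both ways, with CD79A (-0.56, adjusted p 4.78e-08 by limma) and IGLL1 (-0.18, adjusted p 0.0323) lower in replicate 3 and MME (0.27, adjusted p 0.00148) and RAG1 (0.18, adjusted p 0.0295) higher. Of the marker lists for other cell types, 1 gene passed, the endothelial marker EGFL7, which was lower (-0.45, adjusted p 1.52e-06 by limma). Among all genes, 29.3% passed in that comparison. The part of these markers in the receptor differences was not tested.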

How the data were processed

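RNA from 11 samples was labelled with Affymetrix kits and measured on human whole-genome arrays of the same maker. The values deposited by the authors are log2 intensities, judged from their range of 4.40 to 14.84. The method of summary and normalization is not given in the sources used here, and it can change a difference between arrays. Of 54675 probe sets, 62 controls, 1801 listed with several genes and 11777 with no gene were left out, which left 41091 for 19775 genes, of which 41037 matched the RefSeq gene table. Arrays limit the precision by their number.

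Group means were fitted over all 11 arrays with limma 3.58.1 (R 4.3.3), without a replicate term, and p-values are 2-sided with Benjamini-Hochberg adjustment over all genes at a threshold of 0.05. Replicate 3 was compared in the 9 treated arrays with treatment in the model.

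After removing group means, treated arrays of the same number correlated in 9 of 9 pairs (r 0.168 to 0.816, minimum 0.1). Control correlated with treated arrays in 3 of 6 (r -0.152 to 0.438, same minimum). In the comparison of replicate 3, the numbers were taken to pair treated arrays with each other, which is an assumption. The replicate block was fitted over all 11 arrays, so it also paired control arrays with treated arrays of the same number. That pairing is a further assumption. These correlations cannot decide either assumption, because arrays of different number were not compared. A shift shared by the treated arrays numbered 3 would alone make arrays of the same number correlate. With the control mean removed, the deviations of the control arrays mirror each other, so their correlations are not separate observations. The receptor genes and gene lists were chosen with earlier results of these data known. Beyond the receptors, the text names up to 4 passing genes per list by smallest p, the 1 pathway gene of smallest p where none passed, the 5 profiles nearest to S1PR4 and the 3 highest B-lineage markers. VPREB1, CD79A, MME, RAG1, EGFL7, ACTB and GAPDH were named after their values were seen. Alternatives were quantile normalization, means of probe sets, a filter on low values, replicate terms and leaving out each array.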

Additional observations from a re-analysis of the deposited data

Results flagged for a closer look

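S1PR4 lay on opposite sides of control in different replicates. Treated replicates 1 and 2 were all above both control arrays and treated replicate 3 was below them in every treatment, and the difference between replicate 3 and replicates 1 and 2 was -0.67. The gene was chosen on that contrast and the difference was not tested. The same pattern was held by 1.63% of all genes. After quantile normalization S1PR4 kept it, with treated replicates 1 and 2 between 9.39 and 9.73, control at 9.00 and 9.14, and treated replicate 3 between 8.80 and 8.87.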

How the results depend on the processing

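In the comparisons between treatments and with control, none of the 8 tested receptor genes passed under any alternative. The fit with the replicate block left them uncalled while it raised the count over all genes from 0 to 5 with miR-99a, 7 for miR-100 and 863 with both; with replicate 3 as a term the count for both was 443 and with replicates 1 and 2 alone 290. Under the replicate block with both oligonucleotides, ITGA6 differed from control by -0.27, ITGB1 by -0.25 and ITGA4 by -0.25. Their limma adjusted p-values, 0.0521, 0.0765 and 0.0985, were close to the threshold, and the next lowest was 0.305 for CD44. Under the replicate block S1PR4 was above control by 0.44, 0.43 and 0.44, which carries no test. That block pairs control with treated arrays by number, which is an assumption.

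The signs that changed were of small differences. Against control, averaging probe sets turned S1PR2 to 0.03 with miR-99a and 0.06 with miR-100. The replicate block turned CCR7 with miR-99a to 0.01, S1PR2 for miR-100 to 0.01 and S1PR1 with both to 0.02, and replicate 3 as a term gave 0.01, 0.01 and 0.02. With replicates 1 and 2 alone, CCR7 with miR-99a was 0.03 and S1PR1 with both 0.08. For miR-100 against miR-99a, S1PR4 was 0.02 after quantile normalization, and CXCR4 was -0.04 with averaged probe sets and -0.06 with replicates 1 and 2 alone. For both against the single oligonucleotides, quantile normalization gave -0.02 for CXCR4 and -0.00 for CCR7, and replicates 1 and 2 alone gave -0.04 for CCR7, 0.05 for ITGA4 and 0.03 for ITGB1. In replicate 3, S1PR1 was 0.08 within miR-100, CXCR4 was 0.10 after quantile normalization and 0.12 within miR-100, and CCR7 was 0.06 within both. Averaging probe sets left 0 of the 8 receptor genes called in replicate 3, where brightest probe sets gave 2. The cause was not tested.

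Leaving out 1 array at a time moved differences across 0 as follows. With miR-99a against control, CCR7 ran from -0.05 to 0.04, CD44 from -0.03 to 0.19, ITGA4 from -0.23 to 0.06 and ITGB1 from -0.19 to 0.00. With miR-100, S1PR2 ran from -0.08 to 0.04, CD44 from -0.07 to 0.14 and ITGA4 from -0.32 to 0.02. With both, S1PR1 ran from -0.06 to 0.08, CCR7 from -0.07 to 0.02 and ITGA4 from -0.28 to 0.01. For miR-100 against miR-99a, S1PR1 ran from -0.06 to 0.01, S1PR2 from -0.02 to 0.11, S1PR4 from -0.27 to 0.22, CXCR4 from -0.03 to 0.07, CD44 from -0.08 to 0.01, ITGA4 from -0.23 to 0.09, ITGB1 from -0.21 to 0.05 and ITGA6 from -0.10 to 0.03. For both against the single oligonucleotides, S1PR1 ran from -0.01 to 0.13, S1PR4 from -0.19 to 0.26, CCR7 from -0.02 to 0.06, ITGA4 from -0.10 to 0.06 and ITGB1 from -0.10 to 0.04. In replicate 3, CXCR4 ran from -0.14 to 0.02. S1PR1, CCR7 and CD44 gave signals below the array medians, where small changes are hard to see, and calls of detection were not analysed here.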
